A study of Mus musculus with 10 samples.

Results

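The islet hormone genes described here are Ins1, Ins2, Gcg, Sst, Ppy, Pyy, Iapp and Ttr, taken by symbol from a table of raw counts: 8 of its 24421 genes. They were measured by RNA sequencing of a piece of pancreas tail, in 10 libraries, each from 1 mouse. All mice were females aged 12 weeks and carried Ptf1aCreER, an inducible Cre recombinase driven by a gene of acinar cells, and the nuclear reporter nTnG. The groups differ in Insr, the insulin receptor gene. The 3 WT libraries come from Insrw/w mice with 0 floxed alleles, the 3 Het libraries from Insrw/f mice with 1, and the 4 KO libraries from Insrf/f mice with 2. Cre can cut a floxed allele out of the gene. The driver acts in acinar cells, so islet cells are not its stated target. Whether and when the inducer was given is not given in the sources used here. Libraries are named by group and mouse number, as in WT-2404.

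Islets are small groups of endocrine cells spread through the enzyme-making tissue of the pancreas. Beta cells make insulin and amylin, alpha cells make glucagon, delta cells make somatostatin and PP cells make pancreatic polypeptide. Each hormone is made as a longer precursor, cut by prohormone convertases and stored in dense granules until release. Islet hormones reach neighbouring acinar cells through local blood vessels, and acinar cells carry the insulin receptor.

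The mouse has a pair of insulin genes on different chromosomes, and how far reads can tell them apart bears on every Ins1 and Ins2 value. The first 120 coding bases of each, from GENCODE M21 transcripts, are shown with the 14 bases that differ between the genes in capitals. Ins1 lies at chr19:52264624-52264743 on the plus strand and Ins2 at chr7:142679414-142679533 on the minus strand, both GRCm38 and both within 1 coding exon.
Ins1: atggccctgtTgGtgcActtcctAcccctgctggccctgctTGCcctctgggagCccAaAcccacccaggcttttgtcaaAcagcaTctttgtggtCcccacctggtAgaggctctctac
Ins2: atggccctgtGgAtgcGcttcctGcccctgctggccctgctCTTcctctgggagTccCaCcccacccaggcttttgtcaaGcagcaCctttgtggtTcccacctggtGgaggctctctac
Over the whole coding sequence 300 of 324 aligned bases were identical (92.6%), and the longest run shared by the transcripts was 56 bases. Of the 1013 windows of 50 bases in the Ins1 transcript, 7 also occurred in Ins2, and 0 windows of 75 or 100 bases did. How the authors treated reads that match both genes is not given in the sources used here, so their split is uncertain to that extent. The relatives Ppy and Pyy lie 5365 bases apart on chromosome 11 and shared 55.7% of aligned coding bases, with no shared run above 10 bases.

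RefSeq promoters (GRCm38) were matched for 6 of the 8 genes, Ins1, Gcg, Sst, Ppy, Pyy and Iapp. The 100 bases before the start are shown for those with a motif, which is in capitals. The motifs searched on both strands of the 250 bases before the start were TATAAA (the TATA box), TAATG (the core of the A box bound by Pdx1-type factors), GCCATCTG (an E box of the insulin genes) and TGACGTCA (the cAMP response element).
Ins1, chr19:52264197-52264296, plus strand: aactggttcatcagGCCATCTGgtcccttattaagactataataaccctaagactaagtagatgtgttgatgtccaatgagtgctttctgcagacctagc
Gcg, chr2:62483654-62483753, minus strand: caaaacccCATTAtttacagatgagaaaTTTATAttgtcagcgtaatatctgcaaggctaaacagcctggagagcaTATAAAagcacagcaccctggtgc
Sst, chr16:23890845-23890944, minus strand: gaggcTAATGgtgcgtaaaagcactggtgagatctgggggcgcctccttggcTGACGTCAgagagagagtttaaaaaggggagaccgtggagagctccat
Ppy, chr11:102101320-102101419, minus strand: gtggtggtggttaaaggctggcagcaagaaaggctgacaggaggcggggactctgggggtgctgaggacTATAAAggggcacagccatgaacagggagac
Iapp, chr6:142298325-142298424, plus strand: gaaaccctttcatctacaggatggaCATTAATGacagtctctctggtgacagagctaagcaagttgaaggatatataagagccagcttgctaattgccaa
The TATA box lay 24 bases before the start in Gcg and 31 in Ppy. The other TATAAA match in Gcg, capitals that read TTTATA as printed, lies on the opposite strand at 72 bases. The cAMP response element of Sst, a gene known to respond to cAMP, lay at 48 bases and its A-box core at 95. The E box of Ins1 lay at 86 bases. Iapp held the A-box core at 72, 75 and 136 bases, with overlapping matches on opposite strands in the capitals shown, and Gcg held it at 92 on the opposite strand. No match was found in the Pyy windows. Of 32851 promoters in the table, 12.4% held TATAAA, 23.9% TAATG, 1.11% GCCATCTG and 1.55% TGACGTCA in a window of the same length. These matches are letters in a sequence and show no binding.

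Gene counts per library ranged from 11718559 to 19024351. WT-2404 stood apart from the other 9 libraries, with 15.9% of its gene counts in 30 digestive enzyme genes against 58.5% to 77.6% elsewhere, and with a TMM factor (the scaling for library composition) of 3.53 against 0.596 to 1.56. Summed fibroblast markers stood at 4305 CPM (counts-per-million of TMM-scaled library size) in WT-2404 and at 1209 and 1787 in the other WT libraries, against 485 to 942 in Het and 424 to 1085 in KO. Macrophage markers stood at 1009 CPM in WT-2404, 273 and 400 in the other WT libraries, 146 to 219 in Het and 78.7 to 304 in KO. Every one of the 6 fibroblast and 5 macrophage markers was counted in every library. Their part in the results on hormone genes was not tested. In a bulk piece of tissue, fewer cells of a type and less RNA per cell cannot be told apart. The labels do not say that the mice of a group came from separate litters, so p-values measure the spread between these mice.

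The 8 genes together took 0.163%, 0.855% and 0.257% of gene counts in WT-2404, WT-1860 and WT-2067. They took 0.587%, 0.303% and 0.810% in Het-2066, Het-1770 and Het-2042, and 0.399%, 0.515%, 0.583% and 0.206% in KO-2079, KO-2070, KO-2124 and KO-2126. WT-2404 is lowest and WT-1860 highest, so the WT range encloses every Het and KO library. The Wilson 95% interval for WT-2404 ran from 0.161% to 0.165% and covers counting error only. Set against the counts outside the enzyme genes, the share was 0.194% in WT-2404 and 0.909% to 2.88% in the other 9 libraries. All 8 genes passed the filter on low counts, each with at least 70 counts in every library.

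The insulin genes were the most counted of the 8. Ins2, the mouse gene that corresponds to human insulin, stood at 213.0, 2815 and 1503 CPM in WT-2404, WT-1860 and WT-2067. It stood at 3920, 2612 and 4932 CPM in the Het libraries, and at 2361, 4156, 2326 and 1765 CPM in the KO libraries. The Het and KO ranges overlapped each other and the upper part of the WT range, and WT-2404 lay far below all other libraries. Means were 1510 ± 1301 CPM (SD, n = 3, WT), 3822 ± 1163 CPM (SD, n = 3, Het) and 2652 ± 1039 CPM (SD, n = 4, KO). Ins1, a retroposed copy expressed in mouse beta cells, followed nearly the same order over the libraries, from 111 CPM in WT-2404 to 2166 CPM in Het-2042. Its means were 701 ± 584 CPM (SD, n = 3, WT), 1613 ± 530 CPM (SD, n = 3, Het) and 1122 ± 429 CPM (SD, n = 4, KO). Iapp encodes amylin, which beta cells release with insulin. It stood at 33.8, 347 and 197 CPM in WT, 509, 312 and 541 in Het, and 284, 516, 300.4 and 212 in KO libraries. The pattern over mice is that of Ins2, with WT-2404 lowest, Het-2042 highest and overlapping groups.

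Gcg encodes proglucagon, the alpha cell precursor of glucagon. It stood at 81.4, 917 and 452 CPM in WT-2404, WT-1860 and WT-2067, at 938, 631 and 1630 CPM in the Het libraries, and at 771, 1551, 607 and 578 CPM in the KO libraries. The groups overlapped, and WT-2067 and WT-2404 lay below all Het and KO libraries. Sst encodes somatostatin, which restrains release of insulin and glucagon. Its levels were 4.83, 52.0 and 22.4 CPM in WT, 55.9, 44.2 and 67.9 CPM in Het, and 44.6, 75.6, 38.5 and 36.6 CPM in KO libraries. WT-1860 lay inside the Het and KO ranges, and the other 2 WT libraries lay below them.

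Ppy encodes pancreatic polypeptide, whose cells lie mostly in the head of the pancreas rather than the tail. Its levels were 4.26, 17.8 and 7.29 CPM in WT, 11.4, 9.32 and 13.3 CPM in Het, and 9.09, 16.6, 6.31 and 7.07 CPM in KO libraries. The highest level of all was in WT-1860, and the group means of 9.77 ± 7.09 CPM (SD, n = 3, WT) and 9.76 ± 4.70 CPM (SD, n = 4, KO) were almost the same. Pyy encodes peptide YY, a relative made in islets and in gut endocrine cells. Its levels were 7.40, 17.9 and 9.86 CPM in WT, 12.5, 9.22 and 23.3 CPM in Het, and 11.4, 17.9, 11.7 and 7.47 CPM in KO libraries. The lowest KO library was level with WT-2404. From the lowest to the highest library, Pyy spanned 3.15-fold and Ppy 4.17-fold, where the other 6 genes spanned 15.7-fold to 23.2-fold.

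Ttr encodes transthyretin, a carrier of thyroid hormone and of retinol-binding protein that liver, choroid plexus and islet cells make. Its levels were 4.86, 29.4 and 21.9 CPM in WT, 52.0, 37.6 and 76.5 CPM in Het, and 45.3, 71.6, 32.2 and 44.1 CPM in KO libraries. Every Het and KO library lay above every WT library, although KO-2124 lay less than 3 CPM above WT-1860. Means were 18.7 ± 12.6 CPM (SD, n = 3, WT), 55.4 ± 19.6 CPM (SD, n = 3, Het) and 48.3 ± 16.6 CPM (SD, n = 4, KO). Of the liver markers, Alb was at 1.68 CPM in WT, 4.69 in Het and 2.22 in KO libraries, and Apoa1 and Serpina1a had at most 9 and 1 counts in a library. The 4 liver markers in the table summed to 1.0 to 2.51 CPM in WT, 2.89 to 10.2 in Het and 1.75 to 3.15 in KO libraries, below the level of Ttr in each group.

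**Figure D1:**
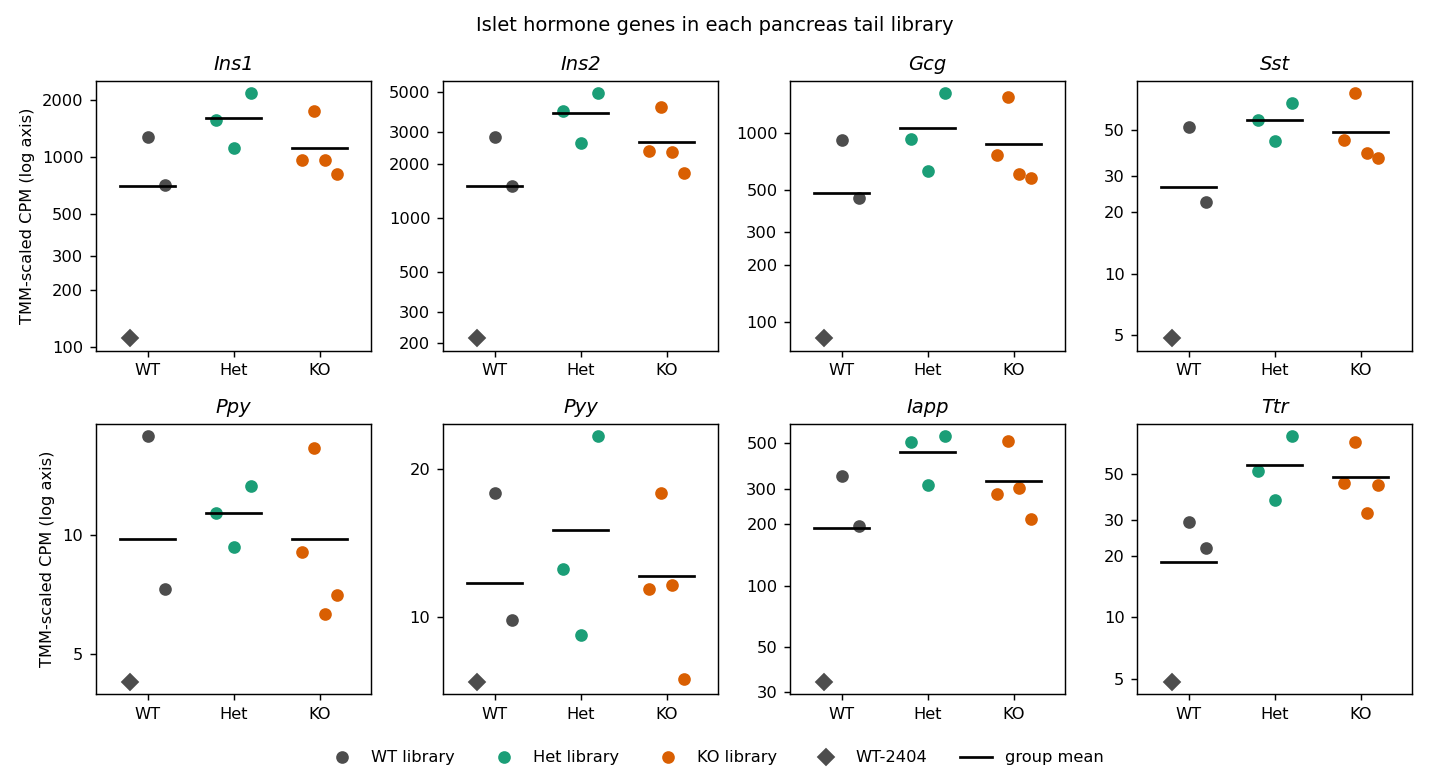
Level of each islet hormone gene in the 10 libraries, as TMM-scaled CPM on a log axis, with 1 point per mouse and the arithmetic group mean as a line. The diamond, WT-2404, is the lowest point in all 8 panels, and Ttr is the gene for which all Het and KO points lie above all WT points.

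Levels were ordered per kilobase of the GENCODE transcript, so that genes of different length can be compared. By the median over 10 libraries, Ins2 stood at 5202 CPM per kilobase, Ins1 at 976, Gcg at 644, Iapp at 365, Sst at 61.5, Ttr at 34.5, Pyy at 21.0 and Ppy at 18.9. Ins2 was above Ins1 by 4.27-fold to 5.57-fold on this scale. The Ins1 transcript model is 1062 bases long against 478 for Ins2, with coding lengths of 324 and 330. Per kilobase of coding length the medians were 7535 for Ins2 and 3198 for Ins1, so the gap depends on the model. From Ins2 down to Iapp the order held in all 10 libraries, and Sst was above Ttr in all 10. In WT-2404, however, Pyy and Ppy both stood above Sst. Ttr was above Pyy in 8 of 10 libraries, and Pyy above Ppy in 5 of 10, so this last pair did not differ beyond the spread.

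Setting KO against WT libraries asks whether insulin receptor loss in acinar cells is accompanied by other levels of hormone RNA. No hormone gene passed the test. Fold changes come from edgeR's quasi-likelihood test over 13688 genes in all 10 libraries, with Benjamini-Hochberg adjustment and a threshold of 0.05. In KO against WT 0 of 8 members passed, against a background of 0% of all genes. DESeq2 called 0 members too, but among 1015 genes called in all. In edgeR 1 member, Ttr, had an unadjusted p under 0.05, against 23.5% of all genes. Ttr was 2.597-fold higher in KO libraries, or 1.38 on the log2 scale (SE 0.52, edgeR adjusted p = 0.156). It was also the member with separate ranges, 1 of 8, where 6.74% of all genes had separate ranges with KO above WT. Without WT-2404 its log2 fold change was 0.91, and DESeq2 gave an adjusted p of 0.0575 for it.

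The other beta, alpha and delta cell hormones had log2 fold changes of 0.68 (SE 0.63) for Ins1, 0.81 (SE 0.68) for Ins2, 0.77 (SE 0.60) for Iapp, 0.86 (SE 0.67) for Gcg and 0.89 (SE 0.59) for Sst. Ppy and Pyy were at -0.01 (SE 0.46) and 0.05 (SE 0.39). The 95% interval for Ins2 ran from -0.65 to 2.28 and that for Ppy from -1.01 to 0.997, and both include 0. In all, 7 of 8 members had a positive log2 fold change, against 51.8% of all genes, with a median of 0.79 against 0.03. Outside the islet, every tested acinar, adipocyte and liver marker had a positive value too on the same TMM scale. The acinar markers, digestive enzymes and acinar transcription factors, were positive in 11 of 11 with a median of 1.17, and took 10.2% to 50.2% of counts in WT and 43.4% to 55.2% in KO libraries. Over the 10 libraries they had a median r of 0.80 with the mean of the hormone genes. WT-2404 was lowest on each side, with an acinar sum of 28737 CPM and a hormone sum of 460 CPM. The r without WT-2404 was not computed for these markers. KO-2126 had the highest acinar sum, 925689 CPM, with hormones at 3459 CPM. Het-2042 had the highest hormone sum, 9450 CPM, with acinar markers at 585100 CPM. The adipocyte markers were positive in 5 of 5 with a median of 0.60, and took 0.00338% to 0.0145% of counts in WT and 0.0023% to 0.0111% in KO libraries. In edgeR and DESeq2 0 acinar or adipocyte markers passed, and none was at 0 in a library. At an unadjusted p under 0.05 in edgeR, 1 of them did, Fabp4, beside 23.5% of all genes. The liver markers were positive in 2 of 2 tested with a median of 0.34, and 0 passed in edgeR or DESeq2. Ductal, fibroblast, macrophage and lymphocyte markers went the other way, negative in 5 of 6, 5 of 6, 5 of 5 and 6 of 6. DESeq2 called 4, 4, 5 and 0 of them, among 1015 genes called in all, and edgeR called 0. Nerve and gut endocrine markers were negative in 3 of 3 and 1 of 1 tested. DESeq2 called 1 of the nerve markers, Npy. The part of these cell types in the hormone values was not tested.

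The size of these values rested on single WT libraries. Without WT-2404 the log2 fold changes in KO against WT were 0.17 for Ins1, 0.30 for Ins2, 0.36 for Gcg, 0.39 for Sst and 0.27 for Iapp. Without WT-1860 they were 1.44, 1.63, 1.72, 1.86 and 1.51. Scaling by library size alone moved the median of all genes to -1.17. On that scale Ins2 was at 0.05, Gcg at 0.01, Sst at 0.04, Iapp at 0.00, Ins1 at -0.10 and Ttr at 0.51, all above the shift. Ppy and Pyy were at -1.06 and -1.0, near the shift itself.

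In Het against WT, again 0 of 8 members passed (0% of all genes) and only Ttr had an unadjusted p under 0.05 in edgeR, where 19.8% of all genes did. Ttr was 2.99-fold higher in Het libraries, or 1.58 on the log2 scale (SE 0.54, edgeR adjusted p = 0.186), with separate ranges, as had 11.3% of all genes with Het above WT. DESeq2 gave it an adjusted p of 0.0585 and called 0 members, among 385 genes called in all. Ins2 was at 1.34 (SE 0.72), Iapp at 1.24 (SE 0.64), Ins1 at 1.20 (SE 0.67), Gcg at 1.14 (SE 0.71), Sst at 1.09 (SE 0.63), Pyy at 0.37 (SE 0.41) and Ppy at 0.23 (SE 0.49). All 8 were positive, against 50.3% of all genes, and their median of 1.17 stood beside 0.005 for all genes. The acinar markers were positive in 11 of 11 (median 1.19, 50.1% to 54.1% of counts in Het libraries). The adipocyte markers were positive in 5 of 5 (median 1.23, 0.00339% to 0.00592% of counts). Of these, 0 passed in edgeR or DESeq2 (at an unadjusted p under 0.05 in edgeR, again Fabp4 alone). The liver markers were positive in 2 of 2 tested (median 1.58), with 2 at an unadjusted p under 0.05 in edgeR and 0 past the adjusted threshold there. Ductal, fibroblast, macrophage and lymphocyte markers were negative in 5 of 6, 6 of 6, 5 of 5 and 6 of 6. DESeq2 called 1, 3, 0 and 0 of them, and edgeR called 0. The part of these cell types was likewise not tested. This comparison shares its WT libraries with the one before. By library size alone the median of all genes was -1.36, Ppy and Pyy were at -0.87 and -0.79, and the other 6 members were positive. Without WT-2404, Ins2 was at 0.85 and Ttr at 1.13.

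KO against Het, which asks whether the second floxed allele adds to the first, gave no call for a member (0 of 8, with 0% of all genes). At an unadjusted p under 0.05 there were 0 members in edgeR, with 0.752% of all genes, and 0 members had separate ranges, with 2.46% of all genes in either direction. All 8 log2 fold changes were negative, from -0.53 for Ins2 to -0.20 for Sst, against 48.6% of all genes, and the edgeR adjusted p was 0.9999 for each. Their median was -0.30, beside 0.01 for all genes and -0.08 for the acinar markers (6 of 11 negative). It was -0.63 for the adipocyte markers (5 of 5 negative) and -1.24 for the liver markers (2 of 2 tested negative). Of the ductal, fibroblast, macrophage and lymphocyte markers, 5 of 6, 4 of 6, 2 of 5 and 1 of 6 were negative. The part of these cell types was not tested. Without Het-2042, the library with the highest levels of 6 of the 8 genes, Gcg, Pyy and Ttr turned positive, at 0.16, 0.15 and 0.11.

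**Figure D2:**
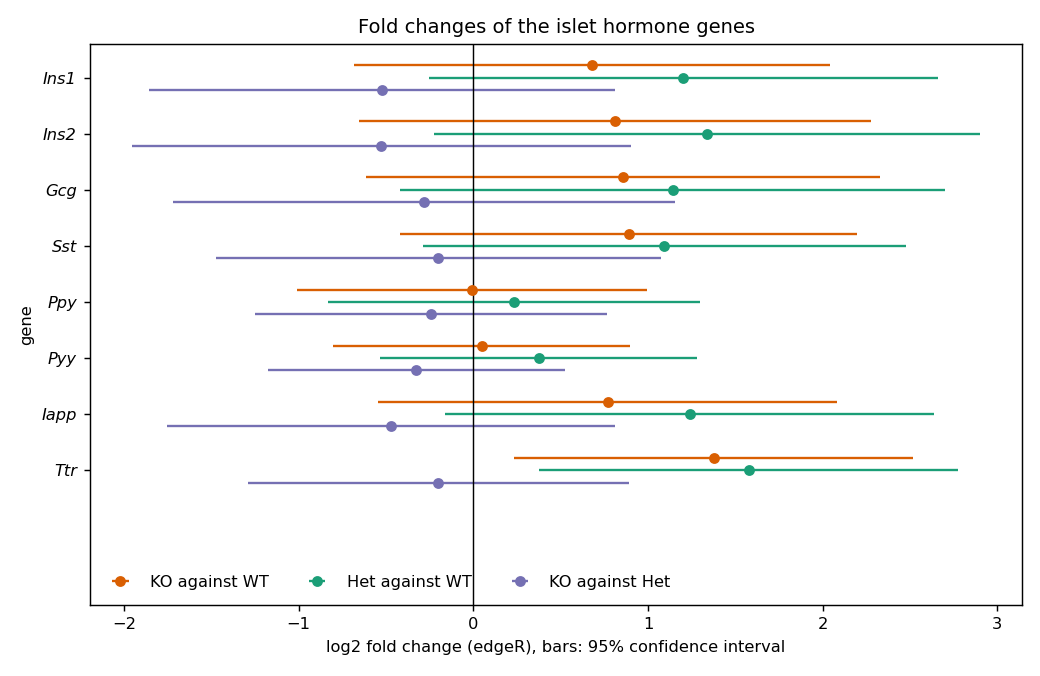
Log2 fold change of each islet hormone gene in the 3 comparisons (edgeR, all 10 libraries), with 95% confidence intervals as bars and 0 as the vertical line. Only the Ttr intervals against WT lie above 0, and these are not adjusted for the number of genes; Ppy and Pyy lie nearest to 0 in KO against WT.

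**Figure D3:**
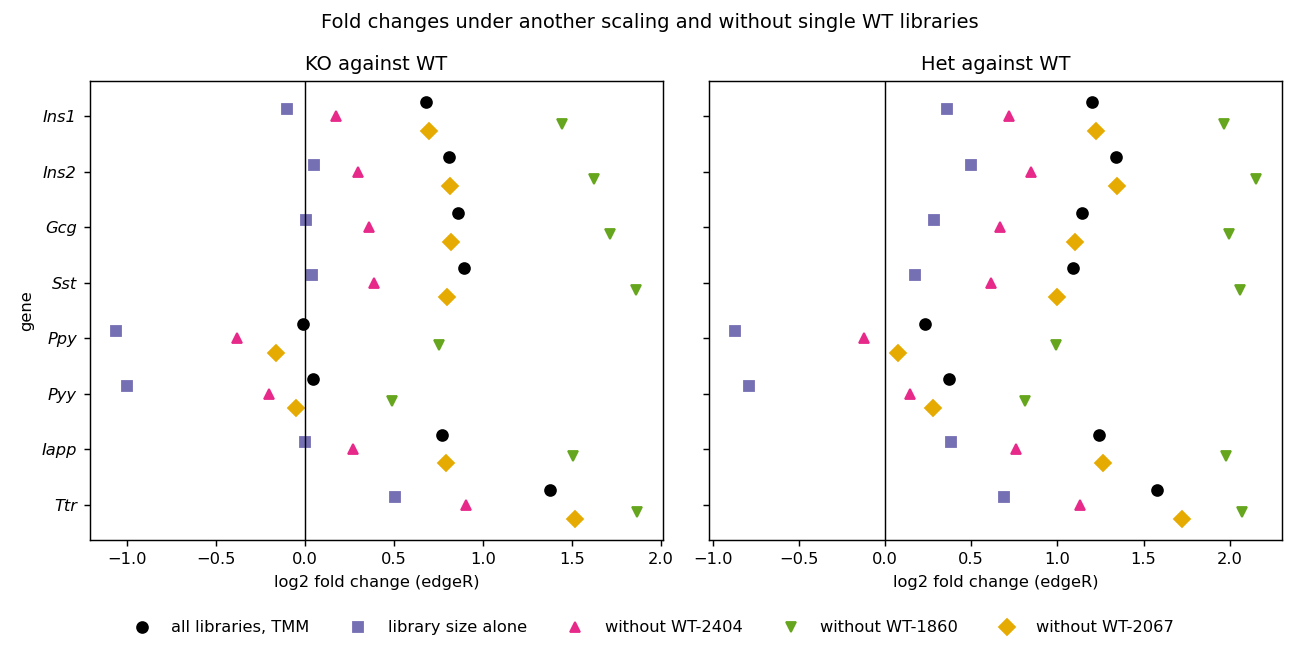
Log2 fold change of each gene in KO against WT (left) and Het against WT (right), with all libraries and TMM scaling (circles), with library size alone (squares) and without each WT library in turn (triangles and diamonds). Values without WT-2404 lie below and those without WT-1860 above the circles for every gene, and library size alone moves all genes to the left.

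Ratios of 2 genes within a library do not depend on how libraries are scaled, and were compared by exact permutation tests (two-sided) on the log2 scale. Ppy counts per 1000 Ins2 counts were 19.99, 6.31 and 4.85 in WT-2404, WT-1860 and WT-2067. They were 2.91, 3.57 and 2.70 in Het-2066, Het-1770 and Het-2042, and 3.85, 3.99, 2.71 and 4.01 in KO-2079, KO-2070, KO-2124 and KO-2126. Every WT library lay above every Het and KO library. The KO against WT difference was -1.24 on the log2 scale, a 2.36-fold lower ratio in KO libraries, with exact p = 0.0286, the least that 3 against 4 mice can give. Adjusted over all 27 ratio comparisons it was 0.385 in the exact permutation test, and it did not pass.

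Pyy per 1000 Ins2 counts was 34.7, 6.37 and 6.56 in WT, 3.20, 3.53 and 4.73 in Het, and 4.84, 4.31, 5.01 and 4.23 in KO libraries, again with WT above both other groups. Its KO against WT difference was -1.30 (exact p = 0.0286, 0.385 adjusted, two-sided permutation). In Het against WT the differences were -1.48 for Ppy and -1.59 for Pyy (exact p = 0.1 each, the least that 3 against 3 mice can give). Without WT-2404 the KO against WT differences were -0.62 for Ppy and -0.49 for Pyy, and the ranges of the remaining libraries stayed apart, as they are a subset of those above. With Gcg, Sst or Iapp in place of Ins2, alternatives added after the data were seen, the KO against WT differences lay between -1.09 and -1.25 for Ppy and between -1.15 and -1.31 for Pyy, with separate ranges each time. Ppy counts lay between 70 and 325 per library and Pyy counts between 74 and 443, so counting error is part of their spread.

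The markers of gut endocrine cells, which also make peptide YY, summed to 1.53 to 2.14 CPM in WT, 0.526 to 1.41 in Het and 0 to 1.05 in KO libraries over 6 genes. Gast, the gastrin gene, had at most 1 count in a library, and KO-2070 had 0 counts of all 6. Only 1 of the 6, Tph1, was tested, with means of 0.916, 0.338 and 0.192 CPM in WT, Het and KO. Sct and Nts, with at most 6 and 14 counts in a library, were not highest in WT. Their means were 0.115, 0.0292 and 0.153 CPM for Sct and 0.196, 0.241 and 0.103 CPM for Nts. Ductal markers summed to 701 to 1137 CPM in WT, 322 to 563 in Het and 330.4 to 558 in KO libraries. WT thus lay above both other groups, as it did for the gut endocrine sums and the fibroblast sums given above. The ductal marker Muc1 did not separate, with means of 164, 179 and 172 CPM in WT, Het and KO. Neither did the fibroblast marker Dcn, with means of 181, 176 and 181 CPM. Of the 6 fibroblast markers, 4 had separate ranges in KO against WT, each lower in KO. These sums depend on the TMM scaling, which the Ppy and Pyy ratios do not. The part of these cell types in the ratios was not tested.

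The ratio of the insulin genes varied little. Ins1 counts per 1000 Ins2 counts were 520, 455 and 475 in WT, 399, 425 and 439 in Het, and 407, 423, 414 and 459 in KO libraries. The Het libraries lay below all WT libraries and the KO libraries overlapped them. As a share of all insulin counts Ins1 took 32.6% ± 1.52 (SD, n = 3, WT), 29.6% ± 1.01 (SD, n = 3, Het) and 29.8% ± 1.11 (SD, n = 4, KO). The log2 difference was -0.18 in KO against WT (exact p = 0.0857) and -0.20 in Het against WT (exact p = 0.1, the smallest possible), both two-sided permutation tests. Without WT-2404 the KO against WT difference was -0.13.

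Gcg per 1000 Ins2 counts, a measure of alpha against beta cell RNA, was 382, 326 and 301 in WT, 239, 241 and 331 in Het, and 326, 373, 261 and 327 in KO libraries, with overlapping groups. Sst per 1000 Ins2 counts was 18.7 ± 3.89 (SD, n = 3, WT), 15.0 ± 1.69 (SD, n = 3, Het) and 18.6 ± 1.72 (SD, n = 4, KO). Iapp stood at 138 ± 18.5, 120 ± 10.1 and 123 ± 4.34 per 1000 Ins2 counts in the same groups. Ttr per 1000 Ins2 counts was 15.9 ± 6.31 in WT, 14.4 ± 1.12 in Het and 18.8 ± 4.68 in KO libraries. So Ttr, whose level had separate ranges, did not have them relative to Ins2 (exact permutation p = 0.429 in KO against WT, two-sided) or to Gcg (exact permutation p = 0.343). Pyy per 1000 Ppy counts overlapped as well, from 990.0 in Het-1770 to 1847 in KO-2124. Over all 9 ratios, 2 had separate ranges in KO against WT, 3 in Het against WT and 0 in KO against Het.

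**Figure D4:**
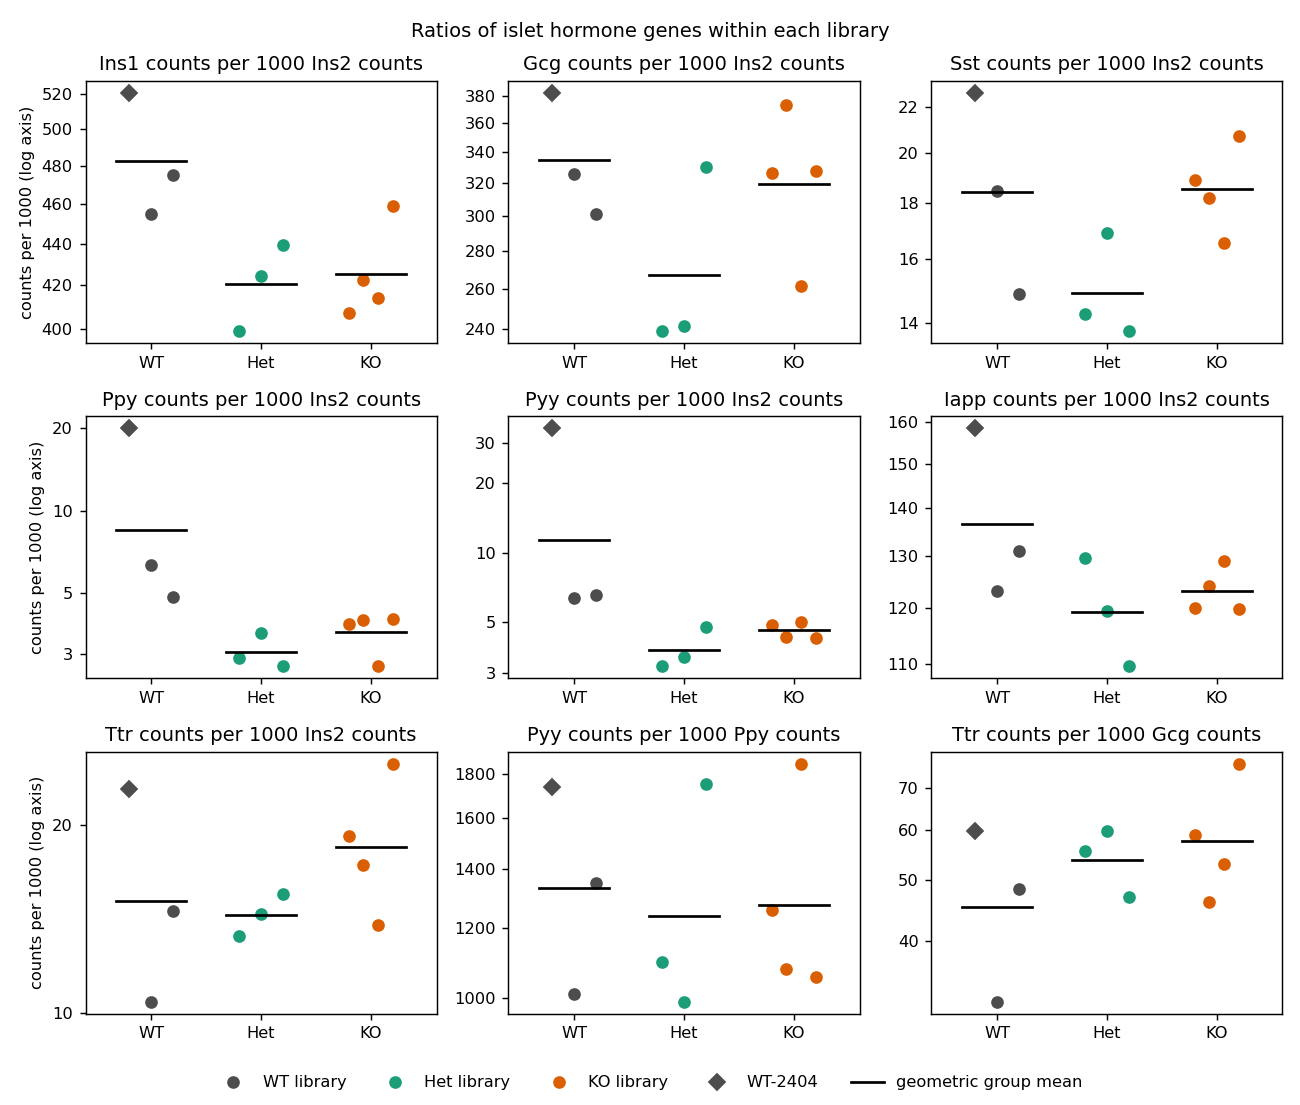
Counts of one hormone gene per 1000 counts of another in each library, on log axes, with 1 point per mouse and the geometric group mean as a line. The WT points lie above all Het and KO points for Ppy and Pyy over Ins2, and above the Het points alone for Ins1 over Ins2.

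Across the 10 mice the hormone genes varied together. On log2 CPM with TMM scaling, Ins2 and Ins1 had a Pearson r of 0.998 (Spearman rho 0.988), and Ins2 and Iapp one of 0.998 (rho 0.988). Their permutation p of 1e-05 is the smallest that 100000 resamples can give. Ins2 and Gcg had an r of 0.983 (rho 0.988, permutation p = 1e-05 for both), and 0.904 without WT-2404 and Het-2042, the 2 libraries farthest from the median. Each of these 3 pairs had an adjusted permutation p of 3.11e-05 for r. Ins2 and Ppy had an r of 0.808 (rho 0.867, permutation p = 0.00144 and 0.00232, adjusted 0.00203 and 0.00397), and 0.739 without those libraries. Ins2 and Pyy had an r of 0.715 (rho 0.879, permutation p = 0.00955 and 0.00161, adjusted 0.0107 and 0.00301), and 0.713 without them.

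Over all 28 pairs r ran from 0.621 (Pyy and Ttr) to 0.998, or from 0.273 to 0.994 without the 2 farthest libraries, and 28 passed a Benjamini-Hochberg adjusted permutation p of 0.05. All pairs share the scaling factor of each library. With library size alone r ran from 0.308 to 0.994 and 16 pairs passed. There Ins2 and Gcg kept an r of 0.961, while Ins2 and Ppy had 0.452 (rho 0.515, permutation p = 0.191 and 0.133), and 0.853 without WT-2404. Ppy and Pyy, the related neighbours, had an r of 0.840 with TMM scaling (rho 0.794, permutation p = 0.00273 and 0.00884) and 0.916 with library size alone (rho 0.964).

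**Figure D5:**
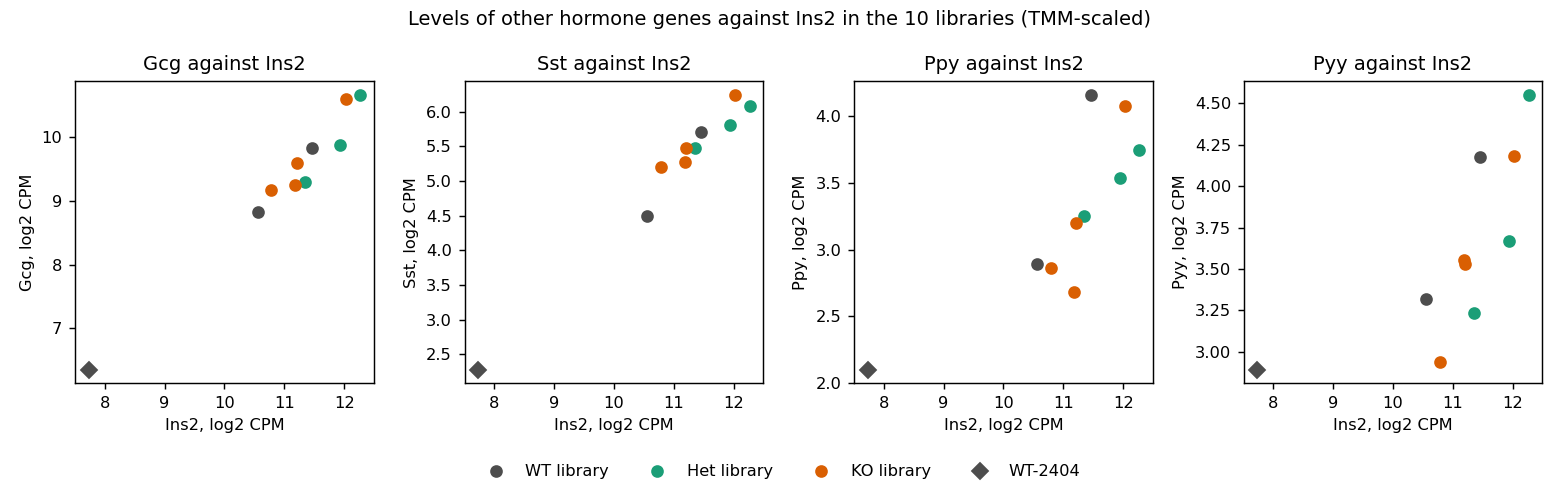
Log2 CPM (TMM-scaled) of Gcg, Sst, Ppy and Pyy against that of Ins2, with 1 point per library. Gcg and Sst follow Ins2 over all 10 libraries, while in the Pyy panel WT-2404 lies far to the left at almost the same level as the next library, 7.40 against 7.47 CPM before the log.

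The genes whose pattern over the 10 libraries was most like the mean log2 CPM of the 8 hormone genes were named by Pearson r, as a description. The 10 most alike were Pcsk2 (r = 0.997), Scg5 (0.996), Chga (0.993), Resp18 (0.991), Chic1 (0.991), Prss53 (0.991), Syt13 (0.989), Pappa2 (0.989), Scg3 (0.989) and Tmem27 (0.989). Pcsk2 is a convertase that cuts proglucagon and proinsulin, Scg5 is its chaperone, and Chga and Scg3 are granins of the secretory granule. Without WT-2404 these 10 had an r of 0.953 to 0.988. Outside the members, 136 of 13680 genes had an r above 0.9, and the median gene had 0.03. Scg5, Scg3 and Scg2 were most like Ins2 alone, Pcsk2, Chga and Scg5 most like Gcg, and Scg5, Dbpht2 and Tmem27 most like Sst. Ppy was nearest to Snph (0.938), Pdyn (0.935) and Ret (0.934), genes at or under 11.8 CPM, and Snph had as few as 2 counts in a library.

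Genes that process and store prohormones had values like those of the hormones, and 0 passed in edgeR or DESeq2. Of 16 listed, 15 were tested, and 14 had a positive log2 fold change in KO against WT (median 0.78), 15 in Het against WT (median 1.16) and 0 in KO against Het (median -0.37). At an unadjusted p under 0.05 in edgeR there were 0, 3 and 0, beside 23.5%, 19.8% and 0.752% of all genes. Chga was at 117 ± 92.4 CPM (SD, n = 3, WT), 276 ± 117 CPM (SD, n = 3, Het) and 208 ± 93.2 CPM (SD, n = 4, KO). Scg2 was at 59.5, 154 and 111 CPM in the same order, Cpe, the carboxypeptidase that trims cut hormones, at 50.01, 105 and 91.9, and Ptprn2 at 50.4, 103 and 88.1. Pam, which amidates peptides and is made in many cell types, was the tested gene of this list least like the hormones over the libraries (r = 0.13).

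Of 17 islet transcription factors, 15 were tested and 0 passed in edgeR or DESeq2, with 12 positive in KO against WT (median 0.66) and 12 in Het against WT (median 0.80). At an unadjusted p under 0.05 in edgeR there was 1 in each of these comparisons, beside 23.5% and 19.8% of all genes. Pdx1, the beta cell factor that binds the insulin genes, was at 3.20, 3.96 and 3.44 CPM in WT, Het and KO libraries. Nkx2-2 was at 4.85, 8.23 and 7.07 CPM, and Hhex, a delta cell factor that ductal cells also make, at 6.43, 5.19 and 5.35 CPM.

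Of the 12 genes of glucose sensing and incretin input, all 12 were tested and 0 passed in edgeR or DESeq2, with 10 positive in KO against WT (median 0.63) and 12 in Het against WT (median 0.87). At an unadjusted p under 0.05 in edgeR there were 0 and 1, beside 23.5% and 19.8% of all genes. Abcc8, the sulfonylurea receptor subunit of the beta cell potassium channel, was at 11.6 ± 10.1 CPM (SD, n = 3, WT), 22.1 ± 8.39 CPM (SD, n = 3, Het) and 17.7 ± 6.48 CPM (SD, n = 4, KO). Tspan7, Cacna1d and Glp1r, the GLP-1 receptor gene, had log2 fold changes of -0.10, 0.32 and 0.02 in KO against WT. The 6 beta cell markers summed to 8.1 CPM in WT-2404 and to 56.2 to 154 CPM in the other 9 libraries, the same library standing apart as for Ins2.

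Of 17 listed receptor genes through which islet hormones act, 9 were tested and 0 passed in edgeR, with 6 positive in KO against WT (median 0.13), and Sstr5, Npy5r and Calcr had 0 counts in all libraries, where a count of 0 allows at most 3 counts, or 0.0501 to 0.395 CPM. At an unadjusted p under 0.05 in edgeR there were 3 for KO against WT, beside 23.5% of all genes. For Het against WT there were 2, beside 19.8% of all genes. DESeq2 called 3 in KO against WT, Igf1r, Gcgr and Stra6, among 1015 genes called in all. In Het against WT it called 0, among 385 in all. Insr itself was at 29.8 ± 9.88 CPM (SD, n = 3, WT), 38.5 ± 8.92 CPM (SD, n = 3, Het) and 31.5 ± 5.95 CPM (SD, n = 4, KO). Gene counts of whole tissue do not show which exons of Insr were read, so they do not check the labels, and each direction above is between libraries labelled KO, Het or WT. Igf1r, the receptor of insulin-like growth factor, was at 17.6, 25.1 and 27.5 CPM (KO against WT 0.64, SE 0.19, edgeR adjusted p = 0.119). Ramp1, a partner of the calcitonin receptor in amylin binding, was at 14.7, 24.2 and 19.9 CPM, and Ramp2 at 6.38, 6.53 and 6.94 CPM. The glucagon receptor gene Gcgr had 2 to 15 counts per library, at 0.161 CPM in WT, 0.661 in Het and 0.756 in KO libraries, and did not pass the filter of the edgeR fit. Stra6, the receptor of the retinol-binding protein that transthyretin carries, was at 3.52, 1.56 and 0.695 CPM (KO against WT -2.26, SE 0.53, edgeR adjusted p = 0.116), with as few as 2 counts in a library.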

How the data were processed

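The authors deposited unnormalised whole-number counts for each gene symbol, with 1 column per mouse. Per the submitters' processing notes, DRAGEN, STAR and Cufflinks and the build mm10 were used, with no version or role given. The labels' protocols give pulverised frozen tissue, RNeasy extraction and a stranded mRNA library kit, which misses RNA with no poly(A) tail. The use of strand in counting is not given in the sources used here. Rows that name no gene, 2.70% to 9.01% of counts per library, stayed out of library sizes and tests. A label counts 4 WT mice, of which 3 are analysed here. A part of the genotype that all groups share and the values of 1 gene are not reported here. The members and gene lists were chosen with earlier results of these data known.

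Genes were tested with edgeR 4.0.16 (TMM factors, filterByExpr defaults with a minimum count of 10, robust quasi-likelihood fit over all 10 libraries, R 4.3.3), and 13688 of 24421 genes passed the filter. Standard errors come from the quasi-F statistic, and the script was tested on simulated data. In each of the 12 pairs of libraries of 1 group, counts differed beyond sampling noise (chi-square over its degrees of freedom 26.5 to 988). Log2 CPM used a prior count of 2. Ratios were tested by exact permutation and correlations by 100000 permutations (scipy 1.17.1). Alternatives were DESeq2 1.42.0, other scalings and filters, and leaving out each library. Coding sequences from GENCODE M21 were aligned with Biopython 1.88. From each list, genes past the threshold, or otherwise up to 4 with the most counts, were named, beside Insr, all members and the genes most like them; markers and other genes named were chosen after their values were seen.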

Additional observations from a re-analysis of the deposited data

Results flagged for a closer look

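In the KO group, the highest or lowest of the 4 libraries was compared with the nearest of the others for 19 measures, by Dixon's gap test. Chance flags about 1 in 20, or 0.95 of 19, and 2 were found. The level of Ins1 in KO-2070 was 1756 CPM, with the other KO libraries between 809 and 964 CPM. The log2 ratio of Ppy over Ins2 in KO-2124 was -8.53, with the others between -8.02 and -7.96. Groups of 3 libraries were not tested.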

How the results depend on the processing

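Over the 3 comparisons, the count of hormone genes called was 0 in all 24 results under other settings and in all 30 without 1 library. Against WT, DESeq2 called 1015 other genes in KO and 385 in Het, library size alone 2835 and 3125, and edgeR without WT-2067 1933 and 1158. By library size alone, log2 fold changes turned to -0.10 for Ins1 and -1.0 for Pyy in KO against WT, and to -0.87 for Ppy and -0.79 for Pyy in Het against WT, where the median of all genes moved as given above. Of 192 log2 fold changes under other settings these 4 changed sign. Leaving out 1 library gave log2 fold changes of -0.38 to 0.75 for Ppy and -0.20 to 0.49 for Pyy in KO against WT, -0.12 to 0.99 for Ppy and -0.095 to 0.81 for Pyy in Het against WT, and -0.71 to 0.16 for Gcg, -0.58 to 0.15 for Pyy and -0.45 to 0.11 for Ttr in KO against Het.

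Log2 ratio differences without 1 library spanned 0 for several pairs. In KO against WT they ran from -0.14 to 0.031 for Gcg over Ins2, from -0.14 to 0.16 for Sst over Ins2 and from -0.26 to 0.13 for Pyy over Ppy. In Het against WT they ran from -0.34 to 0.22 for Ttr over Ins2 and from -0.35 to 0.086 for Pyy over Ppy. In KO against Het they ran from -0.022 to 0.047 for Ins1 over Ins2, from -0.014 to 0.11 for Iapp over Ins2, from -0.14 to 0.29 for Pyy over Ppy and from -0.036 to 0.21 for Ttr over Gcg. In KO against WT they stayed below 0 for Ppy over Ins2 (-1.64 to -0.62) and Pyy over Ins2 (-1.72 to -0.49), and where a WT library is left out the smallest exact p is 0.0667. In KO against Het, where the Ppy and Pyy ratios over Ins2 were 0.24 and 0.28, Ppy was at -0.014 over Gcg and -0.070 over Sst, and Pyy at -0.028 over Sst. The cause of these changes of sign was not tested. No paired analysis was possible because the groups share no mouse number. With 3 or 4 mice a group, precision was set by the spread between mice, and the 95% interval of the Ins1 log2 fold change in KO against WT ran from -0.69 to 2.04.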
